A study of Mus musculus with 12 samples.

Results

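The period genes Per1, Per2 and Per3, the cryptochrome Cry2, the repressor Bhlhe41, the nuclear receptors Nr1d1 and Nr1d2 (Rev-erb alpha and Rev-erb beta) and the PAR bZIP factors Dbp, Tef and Hlf were followed in mouse lung. These 10 genes form the output side and part of the repressor side of the circadian clock. A gene counted as measured where a probe of the array is annotated to that gene alone, and where a gene had several such probes, the one that was brightest on average over the 12 arrays stood for it. By this rule 9 of the 10 genes were measured, out of 22180 genes in all, and Per2 has no value. Lungs came from female mice of 10 weeks, 1 array per mouse and 3 mice per group. The 4 groups were wild type mice left intact (baseline, or unventilated), wild type mice after mechanical ventilation, Zmpste24-/- mice left intact and Zmpste24-/- mice after ventilation. Ventilated mice received 2.5 hours of 100 breaths per minute at an inspiratory pressure of 15 cmH2O, with no pressure held at the end of expiration and an oxygen fraction of 0.21 in the gas. Zmpste24 encodes the metalloprotease that matures lamin A, and mice without it are used as a model of accelerated ageing. The sources used here do not give the hour of the day at which lungs were taken, the light schedule, the strain or any anaesthetic. The design crosses genotype with ventilation, so it asks how lung expression differs with each and whether the response to ventilation depends on genotype. Whether the groups also differed in the hour of sampling cannot be checked, and its part in the differences below was not tested. Words such as rose and fell stand for differences between groups of mice.

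In the mammalian clock the activators CLOCK (or NPAS2) and BMAL1, the product of Arntl, bind E-boxes and switch on the Period, Cryptochrome, Rev-erb, Dbp and Bhlhe41 genes. The Period and Cryptochrome proteins then inhibit the same activators. Rev-erb proteins repress Arntl and Npas2 through response elements shared with the ROR receptors, so in many tissues Arntl is high when Dbp and the Rev-erb genes are low. DBP, TEF and HLF activate genes through D-boxes, and NFIL3 represses through the same element. In lung the clock is known to be active in airway epithelium and macrophages, among other cells, and Per1 can also be induced directly by glucocorticoids and by cAMP signalling.

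Short stretches of the promoters are printed to show which of the genes hold these elements close to a start. The 250 bases before each annotated start were read from RefSeq promoter sequences (GRCm38.p6), which hold 11 windows for the 9 measured genes. Letters in capitals are the E-box CACGTG, the D-box TTATGTAA or the cAMP response element TGACGTCA, searched on both strands; all sequences run 5′ to 3′ on the gene's strand. Per3 holds D-box letters at 2 places, beginning 205 and 158 bases before the start (chr4:151044766-151044915, minus strand). An E-box begins 166 bases before 1 of the starts of Per1 (chr11:69098733-69098838, plus strand) and 153 bases before that of Bhlhe41 (chr6:145865518-145865623, minus strand). Each of the 2 starts of Tef has one, 127 bases (chr15:81802496-81802601, plus strand) and 138 bases (chr15:81811226-81811331, plus strand) away. The cAMP response element of Hlf begins 9 bases before the start (chr11:90390918-90390976, minus strand).
Per3: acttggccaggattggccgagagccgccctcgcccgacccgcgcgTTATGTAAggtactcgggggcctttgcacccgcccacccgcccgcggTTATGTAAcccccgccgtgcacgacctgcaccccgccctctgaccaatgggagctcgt
Per1: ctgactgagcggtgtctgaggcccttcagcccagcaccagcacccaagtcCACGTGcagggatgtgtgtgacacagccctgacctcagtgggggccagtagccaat
Bhlhe41: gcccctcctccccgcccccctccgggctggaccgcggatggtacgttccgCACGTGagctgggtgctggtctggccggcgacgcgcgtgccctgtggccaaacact
Tef, upstream start: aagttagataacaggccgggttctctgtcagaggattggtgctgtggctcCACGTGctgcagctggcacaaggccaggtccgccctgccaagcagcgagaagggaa
Tef, downstream start: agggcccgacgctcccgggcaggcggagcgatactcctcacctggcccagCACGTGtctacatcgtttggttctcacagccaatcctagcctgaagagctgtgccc
Hlf: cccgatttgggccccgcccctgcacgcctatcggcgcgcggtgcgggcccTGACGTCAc

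Among all 32851 promoter windows of the same length, 6.02% hold the E-box, 0.819% the D-box letters TTATGTAA and 1.55% the cAMP response element. The E-box is in 4 of the 11 windows of the clock output genes, and 6 of the 32851 windows hold TTATGTAA at 2 or more places, as that of Per3 does. None of the 11 windows holds the other D-box form TTACGTAA (0.113% of all windows) or the Rev-erb and ROR core letters TAGGTCA and TGGGTCA (2.23% and 3.24%). The half-site TGTTCT of the glucocorticoid response element is in 1 of them, that of the downstream Tef start, and in 16.1% of all windows. The windows of Dbp, Nr1d1, Nr1d2 and Cry2 hold none of these letters within this distance. These matches describe sequence and were not set against the expression values.

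The deposited values are log2 expression, in which 1 unit is a 2-fold difference, and array medians lay between 5.35 and 5.42. Zmpste24 stood between 8.50 and 9.28 in the 6 wild type lungs and between 5.01 and 5.91 in the 6 Zmpste24-/- lungs, as the genotype labels require. Lung markers were high on every array, with Sftpc of alveolar type 2 cells at 13.02 or more, Scgb1a1 of club cells at 13.12 or more, Ager of alveolar type 1 cells at 12.11 or more and the endothelial gene Pecam1 at 10.58 or more. Wild type baseline array 2 stood apart, since all 7 hepatocyte markers, Alb among them at 11.52, had their highest value there. The mean of these markers ranged from 5.75 to 8.48 in unventilated wild type lungs, from 4.82 to 6.07 in ventilated wild type lungs and from 4.59 to 4.81 in Zmpste24-/- lungs of either condition. Wild type ventilated array 1 stood apart in another way, with the highest value of all 4 cardiac muscle markers. The mean of those markers was 10.59 there, against 8.60 and 8.14 in the other ventilated wild type lungs and 6.60 to 9.29 over the remaining 3 groups. The comparisons below give the values without either array where a call or a size turns on it.

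Dbp, an activator of metabolic and detoxification genes, had the widest span. It read 9.81, 9.44 and 9.64 in unventilated Zmpste24-/- lungs (arrays 1 to 3, in that order here and below) and 6.68, 6.72 and 6.91 in ventilated Zmpste24-/- lungs. In wild type lungs it read 9.45, 7.45 and 7.94 at baseline and 8.03, 6.90 and 7.12 after ventilation. The Zmpste24-/- groups lay far apart, whereas the wild type groups overlapped and wild type baseline array 1 reached the range of the unventilated Zmpste24-/- lungs. Tef, a close relative of Dbp, read 8.64, 8.35 and 8.44 in unventilated Zmpste24-/- lungs and 7.48, 7.56 and 7.31 in ventilated ones. In wild type lungs Tef read 7.99, 7.35 and 7.71 at baseline and 7.32, 7.19 and 7.04 after ventilation, so neither genotype's ventilated lungs reached its baseline lungs. Hlf, the third PAR bZIP factor, read 7.54, 7.29 and 7.14 in unventilated Zmpste24-/- lungs, above every other array. Its other groups overlapped, at 6.43, 6.35 and 6.53 in ventilated Zmpste24-/- lungs, 6.98, 6.34 and 6.72 in unventilated wild type lungs and 6.56, 6.67 and 6.40 in ventilated wild type lungs. In group means Dbp, Tef and Hlf were all highest in unventilated Zmpste24-/- lungs, followed by unventilated wild type lungs.

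Per3, the period gene with the least established part in the core loop, followed Dbp. It read 8.98, 8.77 and 8.80 in unventilated Zmpste24-/- lungs and 6.55, 6.56 and 6.77 in ventilated Zmpste24-/- lungs. In wild type lungs Per3 read 8.19, 6.94 and 7.21 at baseline and 7.38, 6.44 and 6.51 after ventilation, 2 overlapping groups that both lay below the unventilated Zmpste24-/- lungs. Per1, a core repressor and an early-response gene, had another order of groups. It read 9.38, 8.79 and 9.46 in unventilated wild type lungs, the lowest group, and 9.91, 9.78 and 9.81 in ventilated wild type lungs. Zmpste24-/- lungs read 10.23, 10.28 and 10.09 at baseline and 10.06, 10.07 and 9.93 after ventilation. No group of Per1 overlapped another, although 2 pairs of groups almost met. The nearest arrays of the Zmpste24-/- groups read 10.09 and 10.07. Those of the ventilated groups read 9.93 in Zmpste24-/- and 9.91 in wild type lungs.

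Cry2, which blocks CLOCK and BMAL1, read 8.46, 8.35 and 8.29 in unventilated Zmpste24-/- lungs, above all other arrays. The remaining groups of Cry2 overlapped, at 7.99, 7.66 and 7.43 in ventilated Zmpste24-/- lungs, 7.86, 7.46 and 7.60 in unventilated wild type lungs and 7.51, 7.53 and 7.77 in ventilated wild type lungs. Bhlhe41 (DEC2), which competes for E-boxes, read 7.18, 6.76 and 6.90 in unventilated Zmpste24-/- lungs and 6.06, 6.18 and 5.81 in ventilated ones. Its wild type values were 6.83, 5.49 and 6.25 at baseline and 6.18, 6.20 and 5.99 after ventilation. The unventilated wild type lungs spread so widely in Bhlhe41 that they overlapped each of the other groups.

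Nr1d1 and Nr1d2, the 2 Rev-erb repressors of Arntl, did not share 1 order of groups. Nr1d1 read 10.48, 9.29 and 9.61 in unventilated wild type lungs and 9.80, 9.44 and 9.75 in unventilated Zmpste24-/- lungs, which lay within the wild type range. After ventilation Nr1d1 read 9.63, 8.68 and 8.46 in wild type and 8.04, 8.62 and 8.73 in Zmpste24-/- lungs. Nr1d2 read 8.78, 7.65 and 7.93 in unventilated wild type lungs and 9.16, 8.81 and 9.07 in unventilated Zmpste24-/- lungs, which all lay higher. After ventilation Nr1d2 read 8.78, 7.95 and 8.09 in wild type and 7.35, 7.87 and 7.94 in Zmpste24-/- lungs. The plot of all 9 genes by mouse shows these levels on axes of equal span.

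**Figure D1:**
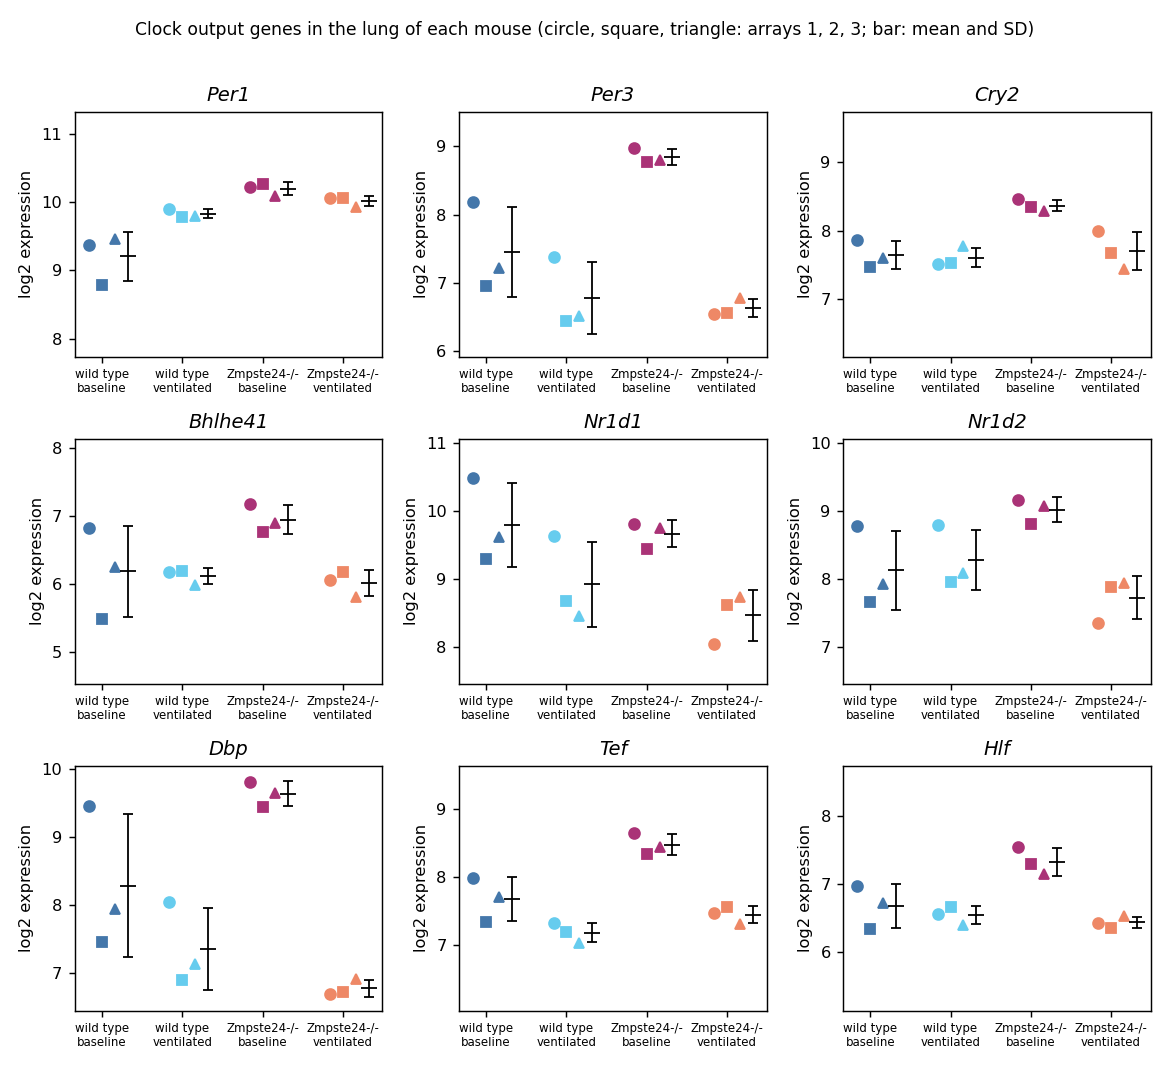
Log2 expression of the 9 measured clock output genes in each of the 12 lungs (vertical axis, every panel spanning the same range; horizontal axis, the 4 groups; circles, squares and triangles are arrays 1, 2 and 3; bars are the group mean and SD, n = 3). unventilated Zmpste24-/- lungs have the highest group mean in every gene except Nr1d1, and unventilated wild type lungs scatter widely, from 7.45 to 9.45 in Dbp.

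In ventilated Zmpste24-/- lungs 8 of the 9 genes passed as lower than in unventilated ones and none as higher, the exception being Per1. Dbp fell by 2.86 ± 0.39 (log2 difference ± standard error, 7.24-fold lower, limma adjusted p = 0.000244) and Per3 fell by 2.22 ± 0.28 (4.67-fold lower, limma adjusted p = 0.000124). The Rev-erb genes Nr1d2 and Nr1d1 changed by -1.29 ± 0.27 and -1.20 ± 0.31, and the PAR bZIP factors Tef and Hlf by -1.03 ± 0.14 and -0.89 ± 0.14. Bhlhe41 changed by -0.93 ± 0.24 and Cry2 by -0.67 ± 0.14. Per1 differed by -0.18 ± 0.14 and did not pass (limma adjusted p = 0.482), with a 95% interval from -0.48 to 0.12. Over all 22180 genes tested, 7.52% passed as lower and 8.89% as higher at an adjusted p of 0.05 (Benjamini-Hochberg over all genes). The median difference of the 9 genes was -1.03, against -0.0074 for all genes. Nr1d1 no longer passed without array 1 or 3 of the unventilated or array 1 of the ventilated Zmpste24-/- lungs (limma adjusted p = 0.0562, 0.0588 and 0.0748) and in a fit with a variance trend (0.0687). Bhlhe41 did not pass without array 1 of the unventilated or array 3 of the ventilated ones (limma adjusted p = 0.0658 and 0.0749).

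Among wild type lungs Per1 alone of the 9 genes passed, as higher. Per1 rose by 0.63 ± 0.14 (1.54-fold, limma adjusted p = 0.0150), and this passed neither without wild type ventilated array 1 (0.0509) nor with the 2 groups fitted alone (0.0684). Over all genes 3.67% passed as higher and 3.53% as lower. Dbp differed by -0.93 ± 0.39, Nr1d1 by -0.88 ± 0.31 and Per3 by -0.67 ± 0.28, and their limma adjusted p were 0.192, 0.119 and 0.183. Their 95% intervals, from -1.77 to -0.089, from -1.55 to -0.20 and from -1.27 to -0.077, hold for each gene on its own, unadjusted for the number of genes tested. Without wild type ventilated array 1, which holds the cardiac transcripts and the highest Dbp of its group, Nr1d1 and Per3 passed as lower (-1.23 and -0.98, limma adjusted p = 0.0264 and 0.0467). Without wild type baseline array 1 the same differences shrank, to -0.34 in Dbp, -0.53 in Nr1d1 and -0.30 in Per3 (limma adjusted p = 0.516, 0.342 and 0.492). Tef, at -0.50 ± 0.14 with no overlap of arrays, missed the threshold narrowly (limma adjusted p = 0.0509) and passed without wild type baseline array 2 (-0.67, limma adjusted p = 0.0108). Hlf, Bhlhe41, Cry2 and Nr1d2 lay between -0.14 and 0.15 and did not pass. Leaving out wild type baseline array 2, Per1 was still higher (0.42, limma adjusted p = 0.0222) and Dbp, Nr1d1 and Per3 differed by -1.35, -1.13 and -0.93 without passing (0.0584, 0.0694 and 0.0826).

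At baseline Zmpste24-/- lungs had more of 5 of the 9 transcripts than wild type lungs: Per3 (1.40 ± 0.28, 2.64-fold), Per1 (0.99 ± 0.14), Tef (0.79 ± 0.14), Cry2 (0.73 ± 0.14) and Hlf (0.65 ± 0.14). Their limma adjusted p were 0.00981, 0.00159, 0.00599, 0.00734 and 0.0175. None of the 9 passed as lower, and over all genes 2.2% passed as higher and 4.11% as lower. Dbp (1.35 ± 0.39), Nr1d2 (0.89 ± 0.27) and Bhlhe41 (0.76 ± 0.24) did not pass (limma adjusted p = 0.0593, 0.0667 and 0.0823). Nr1d1 differed by -0.13 ± 0.31, with a 95% interval from -0.80 to 0.54. Leaving out wild type baseline array 1, which had the highest Dbp of the wild type lungs, brought the count to 8, with Dbp at 1.93 (limma adjusted p = 0.00245), Nr1d2 at 1.22 (0.0129) and Bhlhe41 at 1.08 (0.0104). Leaving out wild type baseline array 2, which holds the hepatocyte transcripts, brought it to 4, with Hlf at 0.48 (limma adjusted p = 0.0604), Per3 at 1.15 (0.0413) and Dbp at 0.93 (0.196). Hlf also missed the threshold without Zmpste24-/- baseline array 1 (limma adjusted p = 0.0700) and with the 2 groups fitted alone (0.0628). Without wild type ventilated array 1, which enters only the spread here, Dbp and Nr1d2 passed (0.0398 and 0.0405). The 3 Zmpste24-/- baseline arrays serve in this comparison and in that of ventilation in Zmpste24-/- lungs, so the 2 sets of values are not independent of each other.

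Under ventilation no difference between the genotypes passed in limma among the 9 genes, where 4.72% of all genes passed as higher and 6.08% as lower. None of the 9 had an unadjusted p under 0.05 either, against 24.8% of all genes. The standard errors rest on 1 spread per gene over all 4 groups. That spread includes the unventilated wild type lungs, which are not compared here and had the widest median SD (0.59). Per1 differed by 0.19 ± 0.14, and its standard error was 0.082 without wild type baseline array 2 (limma adjusted p = 0.181). This count therefore does not show that the genotypes were alike. The differences, Zmpste24-/- minus wild type, ran from -0.58 ± 0.39 in Dbp to 0.26 ± 0.14 in Tef. The 95% interval for Dbp reached from -1.42 to 0.26 and that for Nr1d2 from -1.13 to 0.020, so differences of that size cannot be told from 0 with 3 lungs per group. Without wild type ventilated array 1 the difference was -0.24 in Dbp and -0.30 in Nr1d2. With all arrays, Nr1d2 was lower in each ventilated Zmpste24-/- lung than in any wild type ventilated lung, but the nearest arrays, at 7.94 and 7.95, almost met.

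Whether ventilation acted differently in the 2 genotypes was tested as an interaction, the change in Zmpste24-/- lungs minus that in wild type lungs. None of the 9 genes passed in limma, where 0.316% of all genes did. At an unadjusted p under 0.05 there were 8 of the 9, against 11.7% of all genes. All 9 estimates were negative, from -0.32 ± 0.44 in Nr1d1 to -1.92 ± 0.55 in Dbp, with -1.55 ± 0.39 in Per3, -1.45 ± 0.38 in Nr1d2 and -0.81 ± 0.20 in Per1. Their limma adjusted p were 0.846, 0.167, 0.118, 0.129 and 0.106. Without wild type baseline array 1, Dbp (-2.51), Per3 (-1.92) and Nr1d2 (-1.77) passed, with limma adjusted p of 0.0166, 0.0226 and 0.0351, so this array decides whether any of the 9 genes is called. Without array 2, which holds the hepatocyte transcripts, none passed and Dbp stood at -1.51. The median of the 9 estimates was -0.81, against 0.013 for all genes. The plot of group differences gives every estimate with its interval.

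**Figure D2:**
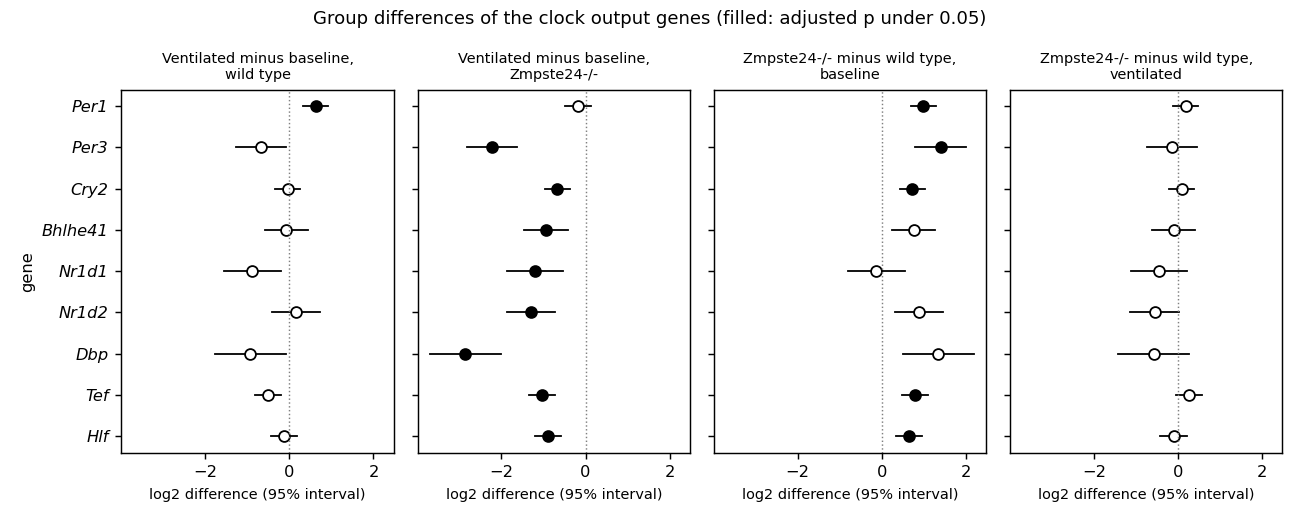
Differences in log2 expression (horizontal axis, points with 95% intervals from limma) of the 9 genes in the 4 comparisons between groups of 3 lungs; filled points passed an adjusted p of 0.05 over all genes. In Zmpste24-/- lungs 8 points lie below 0 and passed, with Per1 near 0, and in the comparison of ventilated lungs no point passed.

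Lungs of 1 group differed in several of these genes at once. In unventilated wild type lungs, array 1 had the highest value in 8 of the 9 genes (Per1 was highest in array 3), and array 2 had the lowest in all 9. The deviations of these arrays from their group mean were 1.17 and -0.83 in Dbp, 0.69 and -0.51 in Nr1d1 and 0.74 and -0.51 in Per3. Arntl, the activator gene that the Rev-erb proteins repress, deviated the other way, by -0.54 in array 1 and 0.48 in array 2, as did Npas2 (-0.79 and 0.58). In ventilated wild type lungs array 1 had the highest value in 6 genes, with Dbp 0.68 above and Arntl 0.65 below the group mean (a deviation of -0.65). In unventilated Zmpste24-/- lungs array 1 had the highest value in 8 genes and array 2 the lowest in 6. Arntl deviated there by -0.14 and 0.16, and Npas2 by 0.12 and 0.08. In ventilated Zmpste24-/- lungs array 1 had the highest value in 1 gene and the lowest in 4. The median SD of the 9 genes was 0.59 in unventilated wild type lungs, 0.14 in wild type ventilated, 0.18 in Zmpste24-/- baseline and 0.13 in ventilated Zmpste24-/- lungs. Over all genes the median SD of the groups was between 0.099 and 0.12. The mean of the cardiac muscle markers was also highest in array 1 of each group except ventilated Zmpste24-/- lungs, where array 1 was lowest. It read 9.29, 7.91 and 8.80 in unventilated and 10.59, 8.60 and 8.14 in ventilated wild type lungs. In Zmpste24-/- lungs it read 9.24, 6.60 and 7.70 at baseline and 7.15, 8.03 and 7.88 after ventilation. The difference in spread between groups was not tested, nor was the part of the hepatocyte transcripts in the low values of wild type baseline array 2. The part of the cardiac transcripts in the shared deviations was not tested either.

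**Figure D3:**
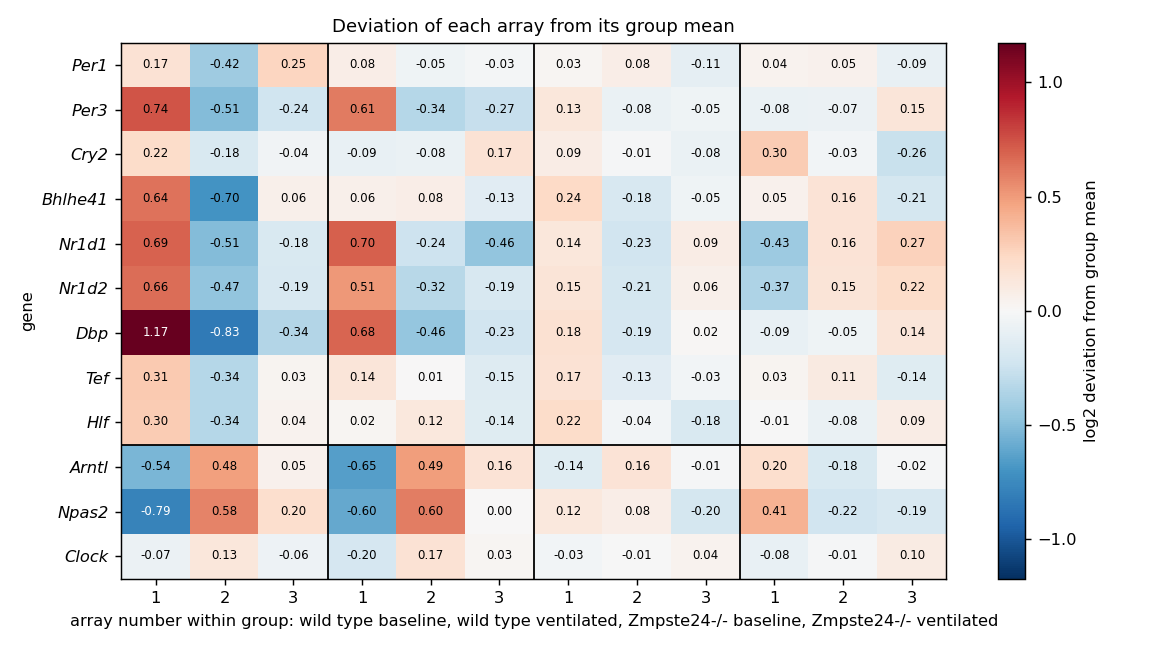
Deviation of each array from the mean of its own group (colour and printed log2 value) for the 9 clock output genes and, under the line, the activator genes Arntl, Npas2 and Clock; columns are arrays 1 to 3 of the 4 groups. Wild type baseline arrays 1 and 2 deviate in opposite directions in the output genes (1.17 and -0.83 in Dbp) and the reverse way in Arntl (-0.54 and 0.48).

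Set against each other within a lung, the Rev-erb genes gave a steadier value than either gene alone in unventilated wild type lungs. The log2 difference Nr1d2 minus Nr1d1 was -1.71, -1.64 and -1.68 in the 3 unventilated wild type lungs, although Nr1d1 alone spanned 9.29 to 10.48 there. It was -0.64, -0.63 and -0.69 in unventilated Zmpste24-/- lungs, -0.84, -0.72 and -0.37 in ventilated wild type lungs and -0.68, -0.75 and -0.80 in ventilated Zmpste24-/- lungs. The unventilated wild type lungs thus lay about 1 unit below the rest, by 1.02 against unventilated Zmpste24-/- lungs and by 1.03 against ventilated wild type lungs. An exact two-sided permutation test over 3 against 3 lungs gave p = 0.1 for both, the smallest p this design allows (0.2 after Benjamini-Hochberg over the 4 comparisons made). Without wild type baseline array 2 the differences were 1.04 and 1.05. The other comparisons gave -0.093 for ventilation in Zmpste24-/- lungs and -0.099 for genotype under ventilation (exact permutation p = 0.2 and 0.8). These are probe values, so the difference shows unequal change of the pair and not which receptor is more abundant. It was computed after the values of both genes had been seen.

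**Figure D4:**
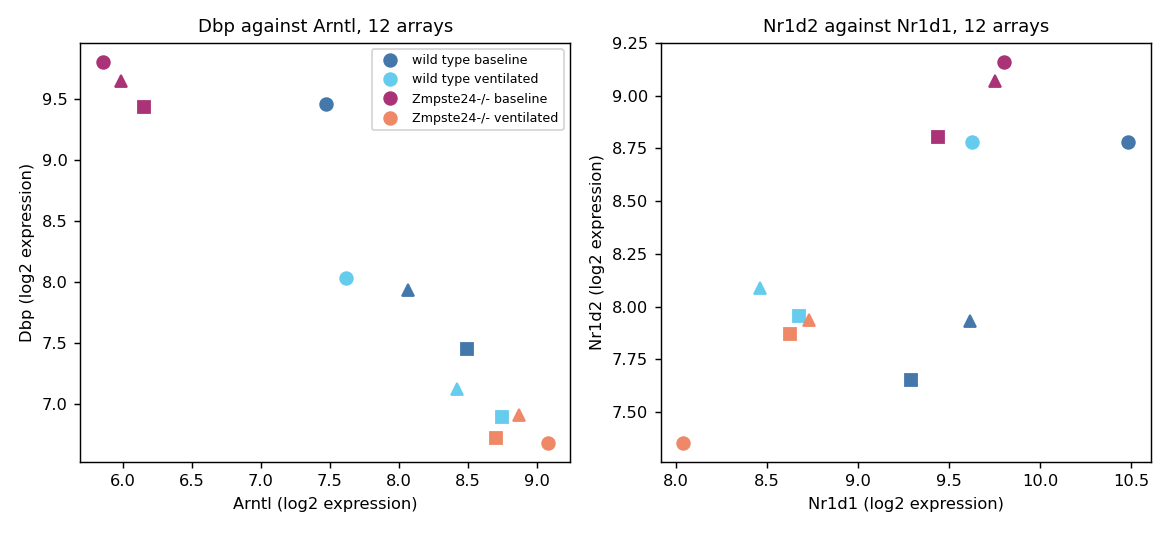
Log2 expression of Dbp against Arntl (left) and of Nr1d2 against Nr1d1 (right) in the 12 lungs, coloured by group (circles, squares and triangles are arrays 1, 2 and 3). Dbp is high where Arntl is low, from 9.81 and 5.86 in a unventilated Zmpste24-/- lung to 6.68 and 9.08 in a Zmpste24-/- ventilated one, and the 3 unventilated wild type lungs run below the other groups in Nr1d2 at a given Nr1d1.

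The partners of these genes in the clock were read from 5 lists of 32 genes, of which 28 were measured. Among the activators, Arntl rose by 2.88 ± 0.26 with ventilation in Zmpste24-/- lungs (limma adjusted p = 1.11e-05) and was lower by genotype at baseline (-2.01 ± 0.26, 0.00105). Arntl read 5.86, 6.16 and 5.99 in unventilated Zmpste24-/- lungs and 9.08, 8.70 and 8.87 in ventilated ones, against 7.47, 8.49 and 8.06 and 7.62, 8.75 and 8.42 in wild type lungs. Its wild type groups overlapped, and its interaction passed (2.63 ± 0.37, limma adjusted p = 0.0159). Npas2 (1.73 and -1.30) and Clock (0.75 and -0.42) passed in the same 2 comparisons and in the same directions, while Arntl2, Rora and Rorb passed in none. Without wild type baseline array 2 the baseline difference of Arntl was -1.77 and passed (limma adjusted p = 0.00485), while those of Npas2 (-1.01) and Clock (-0.35) did not (0.112 and 0.0924). In Zmpste24-/- lungs 3 of these 6 genes therefore rose where 8 of the 9 output genes fell.

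Of the other clock repressors, all 4 rose with ventilation in wild type lungs: Nfil3 (1.15 ± 0.15), which opposes the PAR bZIP factors at D-boxes, Bhlhe40 (0.96 ± 0.17), Ciart (0.67 ± 0.14) and Cry1 (0.59 ± 0.13). In Zmpste24-/- lungs Nfil3 (2.63 ± 0.15) and Cry1 (0.64 ± 0.13) rose, and Ciart (0.02) and Bhlhe40 (0.41) did not pass. By genotype Cry1 was higher at baseline (0.72 ± 0.13) and under ventilation (0.78 ± 0.13), Ciart at baseline (0.63 ± 0.14) and Nfil3 under ventilation (1.23 ± 0.15). Bhlhe40 passed in neither. Without wild type baseline array 2, Cry1 still passed for genotype at baseline (0.73) and Ciart did not (0.51, limma adjusted p = 0.0766). Nfil3 also had a passing interaction (1.48 ± 0.21, limma adjusted p = 0.0159). All 4 also passed for ventilation in wild type lungs without wild type baseline array 2, Nfil3 at 1.15 and Ciart at 0.56. Rhythmic outputs shared by many tissues were higher by genotype at baseline in 5 of 5, namely the kinase Wee1 (1.33 ± 0.19), Tspan4 (0.92), the glucocorticoid-induced Tsc22d3 (0.82), the deubiquitinase Usp2 (0.69) and Nampt (0.48). Under ventilation Tsc22d3 (0.56) and Nampt (0.45) were also higher by genotype, and the other 3 did not pass. With ventilation Usp2 (-0.72) and Tspan4 (-0.58) fell in Zmpste24-/- lungs, and Wee1 rose in wild type lungs (0.78 ± 0.19), as Per1 did. With that array left out, Wee1 (1.26), Tspan4 (0.84) and Tsc22d3 (0.88) passed for genotype at baseline, Usp2 (0.56) and Nampt (0.47) did not, and Wee1 no longer passed for ventilation in wild type lungs (0.72, limma adjusted p = 0.0791).

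Genes known as targets of PAR bZIP factors in other tissues went with Dbp in part. Pdxk, which makes pyridoxal phosphate, was higher by genotype at baseline (0.57 ± 0.12) and lower after ventilation in Zmpste24-/- lungs (-0.54 ± 0.12). Cyp2a5 did the same (0.80 and -0.96), from values under the array medians and with a close relative in the genome, so its size is uncertain. Alas1, the first enzyme of heme synthesis, was higher at baseline (0.48) and did not pass for ventilation, and Nr1i3 and Cyp7a1 passed in no comparison. Again without wild type baseline array 2, Pdxk passed for genotype at baseline (0.56) and Cyp2a5 (0.70) and Alas1 (0.39) did not. Among 8 modifiers of clock proteins, Fbxw11 (0.61) and Sirt1 (0.54) rose and Btrc (-0.33) and Fbxl21 (-0.32) fell with ventilation in Zmpste24-/- lungs, Fbxl21 from values under the array medians. Sirt1 was also higher by genotype under ventilation (0.47). Over the 28 genes the counts were 5 higher and 0 lower for ventilation in wild type lungs, 7 and 6 in Zmpste24-/- lungs, 10 and 3 for genotype in unventilated lungs, 5 and 0 in ventilated lungs and 2 and 0 for the interaction. Over all genes the shares higher and lower were, in that order, 3.67% and 3.53%, 8.89% and 7.52%, 2.2% and 4.11%, and 4.72% and 6.08%. For the interaction 0.316% of all genes passed in either direction. The medians of the 28 genes were 0.18, 0.042, 0.069, 0.11 and -0.043, against -0.013, -0.0074, -0.011, 0.0055 and 0.013 for all genes. The 5 calls for ventilation in wild type lungs became 3 without wild type baseline array 3 and 2 without ventilated array 3. The 13 calls for genotype at baseline became 6 without wild type baseline array 2, Zmpste24-/- baseline array 1 or Zmpste24-/- baseline array 3, and the 5 under ventilation became 3 without wild type ventilated array 2.

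**Figure D5:**
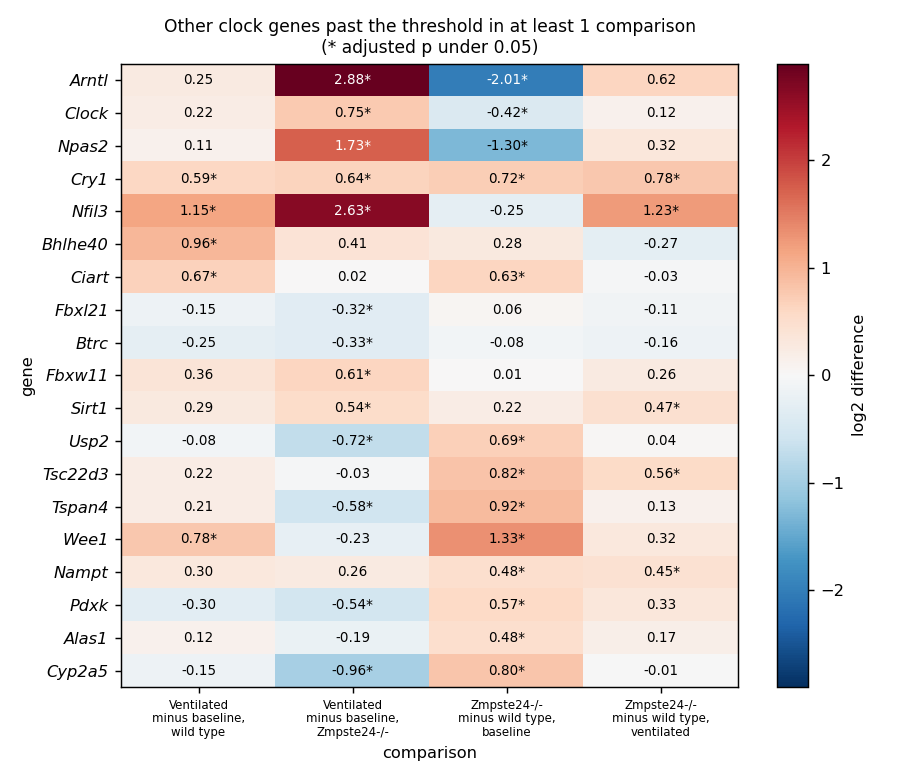
Log2 differences (colour and printed value) of the 19 clock-related genes outside the set that passed in at least 1 of the 4 comparisons; an asterisk marks an adjusted p under 0.05. Arntl, Npas2 and Clock are positive for ventilation in Zmpste24-/- lungs (2.88, 1.73 and 0.75) and negative for genotype at baseline (-2.01, -1.30 and -0.42).

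Other genes with a like profile were ranked by the root-mean-square difference in log2 units over the 12 arrays, after each gene's own mean was subtracted. Nearest to Dbp were Cckar (0.71), Kcnrg (0.74) and Bbof1 (0.74), a loose likeness given that Dbp itself spread by 1.19 on this measure. Nearest to Per1, which spread by 0.41, were S100a6 (0.16), Oaz1 (0.19) and Lonrf1 (0.20), each highest by group mean in Zmpste24-/- lungs and lowest in unventilated wild type lungs. Nearest to Nr1d1, which spread by 0.67, were Nuak1 (0.31), Ect2l (0.36) and Plekha6 (0.37).

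Markers of cell types moved along with ventilation and genotype in the same lungs. Over all genes 3.53% passed as lower and 3.67% as higher with ventilation in wild type lungs, and 7.52% and 8.89% in Zmpste24-/- lungs. For genotype the shares were 4.11% and 2.2% at baseline and 6.08% and 4.72% under ventilation. Endothelial markers fell in 7 of 8 with ventilation in wild type lungs and in 6 of 8 in Zmpste24-/- lungs. They were lower by genotype in 3 of 8 at baseline and in 2 of 8 under ventilation, where 1 was higher. Their mean log2 level was 10.26 to 10.33 in wild type baseline, 9.59 to 9.66 in wild type ventilated, 9.88 to 10.08 in Zmpste24-/- baseline and 9.42 to 9.64 in ventilated Zmpste24-/- lungs. Neutrophil markers rose in 3 of 7 in wild type and 6 of 7 in Zmpste24-/- lungs, with means of 6.25 to 6.93, 7.17 to 7.73, 6.64 to 7.39 and 8.36 to 8.55 in the same order of groups. By genotype 1 of 7 was higher at baseline and 5 of 7 under ventilation. T and NK cell markers were lower by genotype at baseline in 4 of 5, and B cell markers in 2 of 3 measured. Under ventilation these were lower by genotype in 5 of 5 and 3 of 3. With ventilation T and NK cell markers fell in 2 of 5 in each genotype, and B cell markers in 2 of 3 in Zmpste24-/- lungs only. Club and ciliated airway markers, from a tissue in which the lung clock is known to run, lay below 0 in 5 of 5 with ventilation in Zmpste24-/- lungs, where their median was -0.41 and Sntn alone passed (-1.41). They lay above 0 in 5 of 5 for genotype at baseline, with a median of 0.24 and none past the threshold. Their means were 10.50 to 10.85 in unventilated and 10.41 to 10.69 in ventilated wild type lungs, against 10.73 to 11.05 and 10.39 to 10.43 in Zmpste24-/- lungs. Alveolar type 1 markers passed as lower in 1 of 5 with ventilation in either genotype and as higher in 2 of 5 for genotype under ventilation. Of 5 macrophage markers, 1 was lower by genotype at baseline and 1 higher under ventilation. None of the 4 cardiac markers passed. Hepatocyte markers, highest in wild type baseline array 2, passed as lower in 2 of 7 with ventilation in wild type lungs and in 4 of 7 for genotype at baseline. No marker of alveolar type 2 cells, out of 6, passed for ventilation or genotype. Fibroblast and smooth muscle markers were lower by genotype in 2 of 6 at baseline and 4 of 6 under ventilation, where 1 was higher. With ventilation they fell in 1 of 6 in wild type and 2 of 6 in Zmpste24-/- lungs. In whole lung, fewer cells of a type and less RNA per cell cannot be told apart, and the part of these cell types in the clock gene differences was not tested.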

How the data were processed

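Whole-lung RNA was measured on Affymetrix arrays, 1 for each of 12 mice. The authors deposited normalized log2 expression values; per the submitters' processing notes the tools were RMA and limma, without versions, and the log2 unit follows from the values' range. Of 41345 probes, 23521 have 1 gene symbol, 1814 several and 16010 none in the platform annotation. Symbols were updated through gene identifiers in a RefSeq table (GRCm38.p6; 23328 matched). The 1-symbol probe with the highest mean represented each of 22180 genes. Tef has a second probe, with a mean of 5.10 against 7.70. Its differences were smaller. For ventilation it gave 0.051 against -0.50 in wild type lungs and -0.16 against -1.03 in Zmpste24-/- lungs. For genotype it gave 0.34 against 0.79 at baseline and 0.12 against 0.26 under ventilation.

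Values were not normalized again. limma 3.58.1 in R 4.3.3 fitted 1 mean per group to all 12 arrays (lmFit, eBayes), with Benjamini-Hochberg adjustment over all genes and a threshold of 0.05. The fit was tested on simulated data in which genes varied independently, with 1 spread per gene in all groups. The clock output genes differ from that setting, since their spread was widest in unventilated wild type lungs. The simulation therefore does not bear on the reliability of their calls. The labels call the mice of a group biological replicates, and the number of arrays limits the precision. The sources used here give no batch. Alternatives covered filters, centring, quantile normalization, array weights, variance trend, probe averaging, the 2 groups alone, a replicate block and leaving out each array. The values of single partner genes, and of the Rev-erb difference, without the arrays that stood apart were chosen after seeing the data. Genes named are all members, the clock list genes that passed, and the 3 nearest profiles of Dbp, Per1 and Nr1d1; a few markers are named outside this rule as a check of the tissue. The members and lists were chosen with earlier results of these data known. Proteins were not analysed here. Red cell markers had no 1-symbol probe. Figures used matplotlib 3.10.9.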

Additional observations from a re-analysis of the deposited data

Results flagged for a closer look

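Of the clock output genes, Per1 and Nr1d2 had arrays that separated in opposite directions, with an interaction that did not pass. Per1 was higher in every ventilated than in every baseline lung of wild type mice and lower in every ventilated than in every baseline lung of Zmpste24-/- mice, and its interaction was -0.81 ± 0.20 (limma adjusted p = 0.106). Nr1d2 was higher in every Zmpste24-/- than in every wild type lung at baseline and lower in every one under ventilation, with an interaction of -1.45 ± 0.38 (limma adjusted p = 0.129). In each gene a separation was narrow. The nearest Per1 arrays of the Zmpste24-/- groups read 10.09 and 10.07 (limma adjusted p = 0.482). The nearest Nr1d2 arrays under ventilation read 7.95 in wild type and 7.94 in Zmpste24-/- lungs (limma adjusted p = 0.220). How many of all genes separate in this way was not counted.

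Of the other clock genes, Arntl (2.63 ± 0.37) and Nfil3 (1.48 ± 0.21) had an interaction that passed (limma adjusted p = 0.0159 for both).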

How the results depend on the processing

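The count of clock output genes past the threshold for ventilation in wild type lungs was 1, and 2 (Tef added) with low-expressed genes left out (by the 25th percentile or by the median), with array medians subtracted, with quantile normalization, with the replicate block and with a variance trend; it was 0 with the 2 groups fitted alone. With 1 array left out this count ranged from 1 to 2, that for genotype at baseline from 4 to 8 and that for the interaction from 0 to 3. For the other clock genes it ranged from 2 to 5 (ventilation in wild type lungs), from 6 to 13 (genotype at baseline), from 3 to 5 (genotype under ventilation) and from 1 to 5 (interaction, 5 without wild type baseline array 1 and 1 without Zmpste24-/- baseline array 1). Of 936 values of single clock output genes under an alternative, 892 kept direction and side of the threshold, 22 newly passed, 11 no longer passed and 11 changed sign, all 11 with 1 array left out and none past the threshold. The ranges of the last were, for ventilation in wild type lungs, -0.42 to 0.25 in Bhlhe41, -0.13 to 0.074 in Cry2, -0.30 to 0.014 in Hlf and -0.10 to 0.48 in Nr1d2; for genotype, -0.38 to 0.21 in Nr1d1 at baseline and, under ventilation, -0.054 to 0.23 in Cry2 and -0.32 to 0.15 in Per3; and for the interaction -0.67 to 0.029 in Nr1d1. Apart from what is shown by construction, the cause was not tested. Over all genes, the deviations of same-numbered arrays had correlations from -0.13 to 0.15. Array 1 had the highest value of its group in 8 of the 9 clock output genes in unventilated lungs of each genotype. It did so in 6 in ventilated wild type and 1 in ventilated Zmpste24-/- lungs. Whether same-numbered arrays shared an hour or a batch was not tested. With the replicate block 6 clock output genes passed for genotype at baseline and 8 for ventilation in Zmpste24-/- lungs. Dbp passed for genotype at baseline with the block (limma adjusted p = 0.0200), with low-expressed genes left out by the 25th percentile (0.0448) or by the median (0.0367) and with array weights (0.0449). Nr1d2 passed there with the median filter (0.0418), which made the count 7. Averaging probes left Tef at -0.23 for ventilation in wild type lungs (limma adjusted p = 0.275). Over all genes the interaction had 70 calls, 26 with quantile normalization, 43 with the replicate block, 112 with a variance trend, 152 without genes below the median, 164 with array weights and 8 to 118 with 1 array left out. With 1 array left out, calls over all genes went as low as 799 of 1597 for ventilation in wild type lungs, 646 of 1399 for genotype at baseline and 1369 of 2395 under ventilation.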
